A study of Mus musculus with 24 samples.

Results

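The enzymes described here make the eicosanoids, which are signalling lipids formed from arachidonic acid. They are 10 genes listed by symbol. No cutoff on a measured value picked them, but earlier results of these data were known when they were chosen. Alox5, Alox5ap, Alox15, Lta4h and Ltc4s are on the lipoxygenase side, and Ptgs1, Ptgs2, Ptges, Hpgds and Tbxas1 on the cyclooxygenase side. Each symbol matched a single identifier among the 56884 genes of the count table. In GRCm39 the lipoxygenase-side genes are Alox5 at chr6:116387032-116438139 (minus strand), Alox5ap at chr5:149196003-149227762 (plus strand), Alox15 at chr11:70234970-70242858 (minus strand), Lta4h at chr10:93289210-93320749 (plus strand) and Ltc4s at chr11:50127288-50129443 (minus strand). Those of the cyclooxygenase side are Ptgs1 at chr2:36120438-36142287 (plus strand), Ptgs2 at chr1:149975194-149983978 (plus strand), Ptges at chr2:30779483-30820196 (minus strand), Hpgds at chr6:65094001-65121983 (minus strand) and Tbxas1 at chr6:38852203-39061523 (plus strand). The sequenced RNA came from bone marrow-derived macrophages, grown with the factor M-CSF from wild-type C57BL/6J mice, of 4 adult female animals numbered 1, 2, 4 and 5. Each mouse gave 1 library in each of 6 groups, 24 libraries in all. Naive cells received no cytokine. The IL-4/IL-13 group received both cytokines at 20 ng/ml each for 24 h. The other 4 groups were kept for 1 h with an inhibitor and then received the same cytokines together with that inhibitor for 24 h. Tunicamycin, used at 5 µg/ml, blocks N-linked glycosylation in the endoplasmic reticulum. Sal003, used at 10 µM, inhibits the dephosphorylation of the translation factor eIF2α. Oligomycin, used at 1 µM, blocks the mitochondrial ATP synthase and was given in 2 groups, one of them also with ISRIB at 1 µM, a compound that counteracts the integrated stress response. The titles of the samples place ISRIB in the libraries named Oligo, whereas the library names place it in those named Oli_ISR. Both groups are therefore called by their library names, and no direction is drawn for ISRIB. Cells grown this way are a culture model and carry no tissue environment, and the question behind the comparisons is how stress responses alter the macrophage response to IL-4 and IL-13.

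In cells, phospholipases and lipases free arachidonic acid from membranes. The lipoxygenase Alox5, helped by its membrane partner Alox5ap (FLAP), turns it into leukotriene A4, which Lta4h hydrolyses to the neutrophil attractant leukotriene B4 and Ltc4s joins to glutathione to form leukotriene C4. Alox15 oxygenates the chain further along and is known as a gene that IL-4 induces in some macrophage populations. The cyclooxygenases Ptgs1 (COX-1) and Ptgs2 (COX-2) make prostaglandin H2, from which Tbxas1 forms thromboxane A2, Hpgds forms prostaglandin D2 and Ptges forms prostaglandin E2. Ptgs1 is generally described as the constitutive and Ptgs2 as the inducible cyclooxygenase.

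The promoters of Ptgs1, Tbxas1 and Ptgs2 are shown because Ptgs1 and Tbxas1 moved together across the groups and Ptgs2 moved in the opposite direction under tunicamycin. The sequences are the 250 bases before the RefSeq start (table of build GRCm38.p6, which held 8 of the 10 genes), each found once in GRCm39 by exact match, and lie on the plus strand at chr2:36120188-36120437, chr6:38895670-38895919 and chr1:149975532-149975781. Capitals mark matches, on either strand, to 6 short motifs searched for.
Ptgs1: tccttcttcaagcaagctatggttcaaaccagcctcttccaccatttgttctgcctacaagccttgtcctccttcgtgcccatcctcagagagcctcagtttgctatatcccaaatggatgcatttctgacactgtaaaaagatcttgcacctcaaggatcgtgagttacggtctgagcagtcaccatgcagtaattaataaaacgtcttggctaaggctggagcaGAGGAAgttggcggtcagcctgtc
Tbxas1: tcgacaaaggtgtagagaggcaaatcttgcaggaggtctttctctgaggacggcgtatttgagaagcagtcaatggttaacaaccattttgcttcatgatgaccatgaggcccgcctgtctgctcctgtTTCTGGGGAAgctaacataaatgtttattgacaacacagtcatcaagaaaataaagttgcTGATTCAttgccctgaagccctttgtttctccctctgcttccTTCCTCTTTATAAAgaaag
Ptgs2: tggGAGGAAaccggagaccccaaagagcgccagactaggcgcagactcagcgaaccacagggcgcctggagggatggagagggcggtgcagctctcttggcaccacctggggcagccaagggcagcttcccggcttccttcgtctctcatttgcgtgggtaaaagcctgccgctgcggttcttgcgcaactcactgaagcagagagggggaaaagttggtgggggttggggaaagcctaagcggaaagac
Ptgs2, bases 2 to 30 after the start (chr1:149975783-149975811): gagtcaccactaCGTCAcgtggagtccgc
The site of STAT6, the factor that IL-4 activates, was searched as TTCNNNNGAA, and the composite site shared by C/EBP and ATF factors as TGATGNAA. The core of the cAMP response element was written TGACG. The motif of AP-1, a factor of activated cells, was written TGANTCA. The core motif of the macrophage factor PU.1 was written GAGGAA. The TATA box, which positions the start of transcription, was written TATAAA. In a window of 300 bases that also held the 50 bases after the start, Tbxas1 matched the STAT6 motif with its first base 121 bases before the start, the AP-1 motif at 61, the PU.1 core at 19 and the TATA box, on both strands with overlapping letters, at 13 and 11. Ptgs1 matched only the PU.1 core, at 24 bases before the start. Ptgs2 matched the PU.1 core at 247 bases before the start and the cAMP response element core at base 14 after it. Among the 8 enzymes with a RefSeq promoter, the PU.1 core was matched in all 8, and the STAT6 motif also in Ptges, with its first base 197 bases before the start. The C/EBP-ATF composite matched none. Among all 32851 RefSeq promoters of this length, 6.95% matched the STAT6 motif, 3.97% the C/EBP-ATF composite, 20.8% the cAMP response element core, 7.81% the AP-1 motif, 28.3% the PU.1 core and 13.6% the TATA box. These matches describe letters and not binding. In the GENCODE annotation the canonical transcript of Ptgs2 starts before its window and that of Tbxas1 inside the end of its window, so that these bases count as transcribed there.

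Libraries held 16238727 to 26725278 reads assigned to genes (median 18999998). Of the 10 enzymes, 9 passed the filter on low counts and were tested among 13679 genes. Alox15 did not pass it and is described by its counts. All 7 macrophage markers examined were detected in every group, and their summed level ranged from 30580 to 36300 CPM (counts scaled to library size) in naive, 11370 to 13770 in IL-4/IL-13 and 8721 to 17650 in the inhibitor libraries. Lyz2 was the largest part of this sum in every group, and the means of single markers differed in direction. With tunicamycin Adgre1 (F4/80) had 6678 CPM ± 537 (SD, n = 4) against 977.5 ± 101 with IL-4/IL-13, while the M-CSF receptor Csf1r had 821 ± 48.5 against 3732 ± 358 and the uptake receptor Mertk 19.0 ± 1.22 against 66.0 ± 1.91. The conditions were checked on genes outside the set. Arg1, a marker of IL-4/IL-13 stimulation, had 0 to 2 counts in the naive and 6679 to 9379 in the IL-4/IL-13 libraries, and Trib3, a target of the stress-induced factor ATF4, had 3.55 CPM ± 0.50 (SD, n = 4) with the cytokines alone, 835 ± 28.4 with tunicamycin, 33.8 ± 5.48 with Sal003, 541.6 ± 14.8 in the Oligo and 146 ± 4.35 in the Oli_ISR libraries. The Oligo libraries were also above the Oli_ISR libraries in the stress genes Atf4 (704 ± 3.31 against 478 ± 20.0 CPM, adjusted p = 7.2e-07) and Ddit3 (226 ± 10.5 against 123 ± 7.04, adjusted p = 1.2e-07), and below them in Arg1 (148 ± 30.2 against 295 ± 38.0, adjusted p = 9.8e-07) and in Irf4, which IL-4 induces (25.4 ± 0.85 against 74.0 ± 8.58, adjusted p = 6.4e-12). These values did not set the names of the groups. A whole-culture library cannot tell fewer cells of a type from less RNA per cell. Reads from overlapping genes on the opposite strand cannot be told apart where the strand setting is unknown. Such genes covered 25.8% of the exon length of Ltc4s, 10.9% of Alox5, 9.29% of Ptgs2 (the antisense RNA Ptgs2os), 7.2% of Ptges and 1.14% to 5.44% of Alox5ap, Ptgs1, Hpgds and Tbxas1, and none of Lta4h or Alox15. Among the genes used as a check, Mars1 on the other strand covered 64.1% of Ddit3 and a noncoding RNA gene 23.8% of Arg1. Atf4, Trib3 and Irf4 had no overlap. The symbol Ddit3 had 2 identifiers in the counts, and the first was used.

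Per kilobase of exon, Alox5ap was the highest of the 10 enzymes in each of the 6 groups, from 84.1 CPM per kb in naive to 36.7 in the Oligo libraries. In naive cells Hpgds (31.4 CPM per kb) and Tbxas1 (16.3) followed. With IL-4/IL-13, Ptgs1 (56.2 CPM per kb) and Tbxas1 (37.6) came next and Hpgds dropped to the fifth place (4.43). With tunicamycin the order changed again, with Hpgds (14.6 CPM per kb) and Ptgs2 (10.4) after Alox5ap, and Ptgs1 (1.28) seventh. Alox15 was the lowest in every group. These levels are per merged exon length, which counts the exons of all annotated transcripts of a gene.

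**Figure D1:**
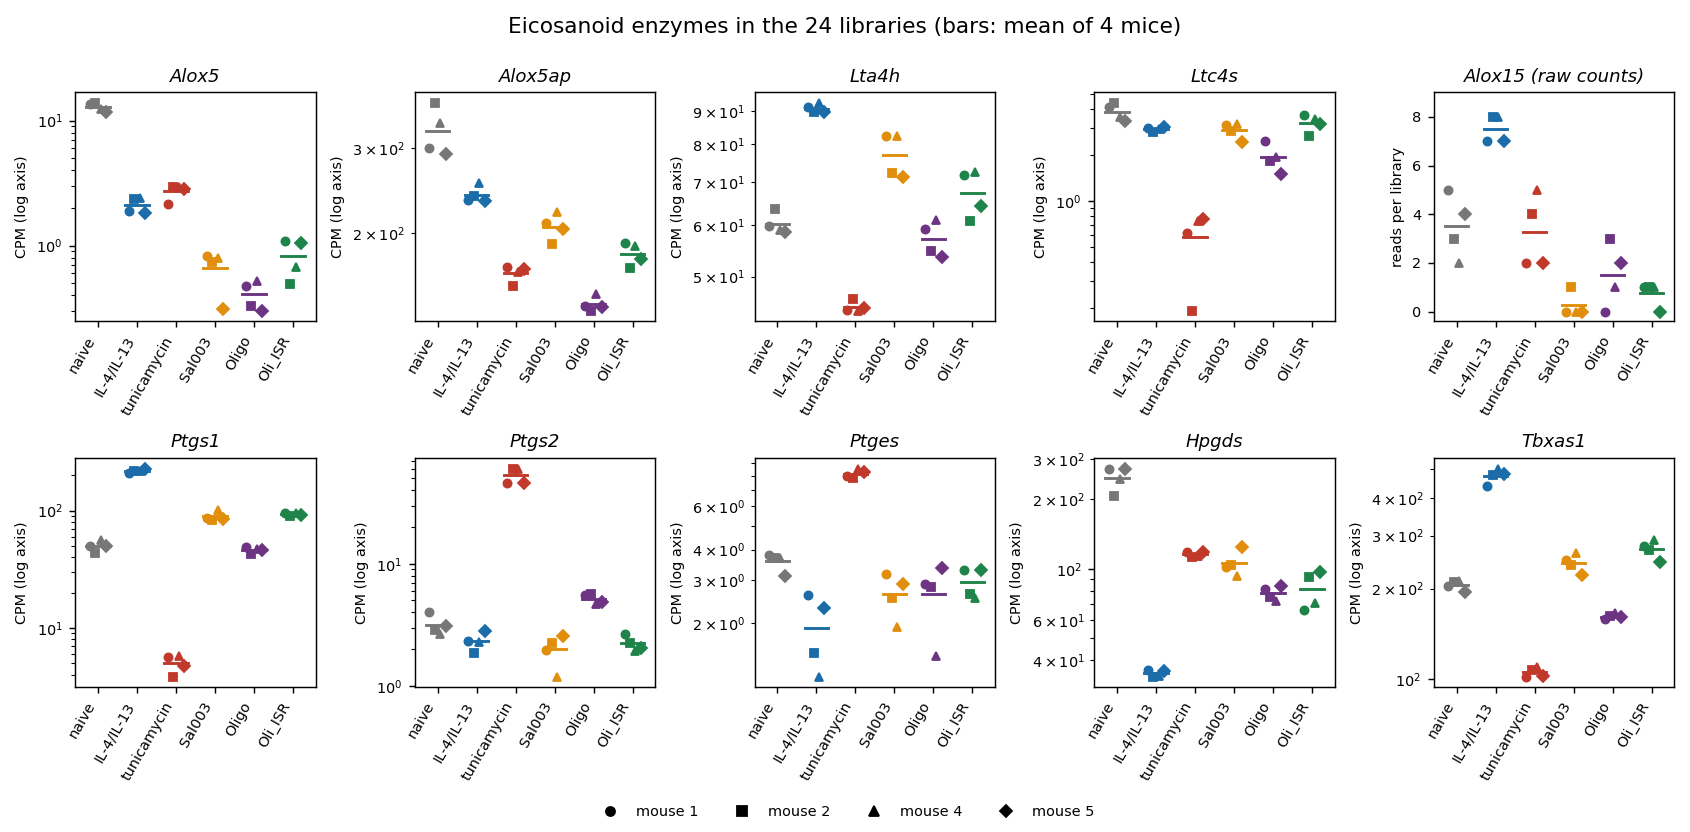
CPM on a log axis of each enzyme in the 24 libraries (raw read counts on a linear axis for Alox15), by group on the horizontal axis; symbols are mice and bars the mean of 4 libraries. Ptgs1 lay between 209 and 228 CPM with IL-4/IL-13 and between 3.86 and 5.73 with tunicamycin, while Ptgs2 lay between 1.87 and 2.79 and between 45.6 and 60.3.

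Each comparison was read with a call that asks for an adjusted p-value under 0.05 and at least a 2.5-fold difference (edgeR), and a gene is said below to have risen or fallen where its adjusted p-value was under 0.05. Between IL-4/IL-13 and naive, 1 of the 9 tested enzymes was called higher (Ptgs1) and 2 were called lower (Alox5 and Hpgds), against 5.39% of all genes called higher and 6.08% called lower. By the adjusted p-value alone 3 were higher and 5 lower, where 60.5% of all genes passed in either direction. The median size of the log2 fold change was 0.92 over the enzymes and 0.34 over all genes tested.

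Between tunicamycin and IL-4/IL-13, 3 enzymes were called higher (Ptgs2, Ptges and Hpgds) and 3 called lower (Ptgs1, Ltc4s and Tbxas1), against 8.56% and 14.0% of all genes, and 8 of 9 passed by the adjusted p-value alone, against 76.3%. Sal003 gave 1 call higher (Hpgds) and 1 lower (Alox5), with 2.68% and 5.04% of all genes called, and 6 of 9 enzymes passed by the adjusted p-value alone, against 50.6%. In the Oligo libraries no enzyme was called higher and 3 were called lower (Alox5, Ptgs1 and Tbxas1), with 4.79% and 7.96% of all genes called, while 2 enzymes rose and 6 fell by the adjusted p-value alone, against 66.2%. In the Oli_ISR libraries none was called higher and 1 called lower (Alox5), with 2.94% and 5.02% of all genes called, and 2 rose and 5 fell by the adjusted p-value alone, against 54.3%. The single call in the Oli_ISR libraries sat at the edge of the fold threshold. With the mouse as replicate block it had a log2 fold change of -1.32 and was not called, which left 0 calls, and neither was it called without mouse 2 (-1.11) or without mouse 4 (-1.19). These 4 comparisons share the IL-4/IL-13 libraries.

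Between the Oligo and the Oli_ISR libraries no enzyme reached the call, where 1.14% of all genes were called higher and 1.48% lower. By the adjusted p-value alone, 1 rose (Ptgs2) and 6 fell, against 41.2% of all genes. At an unadjusted p under 0.05 there were also 7 of 9 enzymes, where the share of all genes is at least the 41.2% that passed after adjustment. By DESeq2 the count of called enzymes was also 0. Against naive cells, 4 enzymes were called with tunicamycin (22.6% of all genes), 1 with Sal003 (10.7%), 2 in the Oligo libraries (14.5%) and 2 in the Oli_ISR libraries (11.0%). Alox5, lower than in naive cells, was among the calls in all 4.

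**Figure D2:**
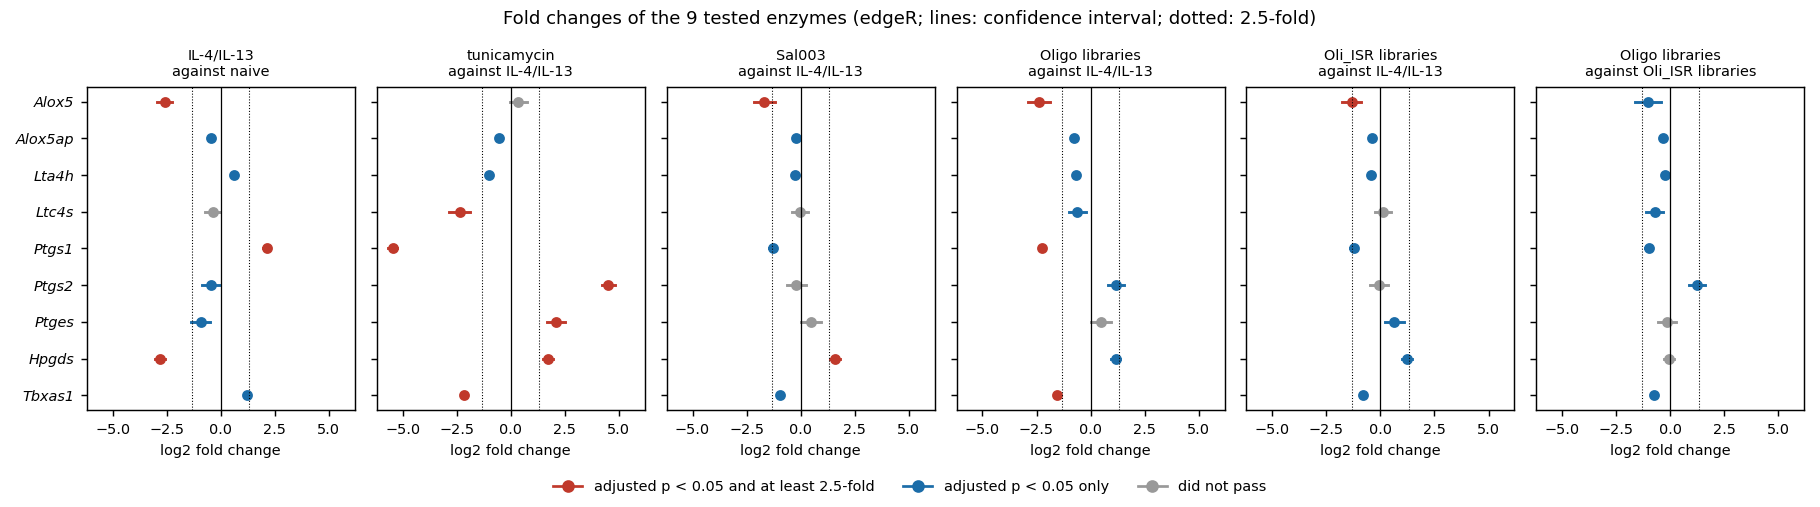
Log2 fold changes of the 9 tested enzymes (horizontal axis) in 6 comparisons, with 95% intervals as lines, dotted lines at 2.5-fold and colours for the outcome of the edgeR test. Tunicamycin against IL-4/IL-13 spans the widest range, from -5.46 for Ptgs1 to 4.52 for Ptgs2.

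Ptgs1, which encodes COX-1, was the enzyme with the clearest rise under IL-4/IL-13. It had 49.8, 43.2, 56.5 and 49.5 CPM in the naive libraries of mice 1, 2, 4 and 5, and 208.5, 218, 218.5 and 228 with the cytokines. Every cytokine library lay above every naive one, and the level rose 4.38-fold (log2 fold change 2.13, SE 0.08, adjusted p = 8.2e-18). With tunicamycin the 4 libraries had 5.65, 3.86, 5.73 and 4.74 CPM, which is below the naive level as well. The fall against IL-4/IL-13 was 43.9-fold (log2 fold change -5.46, SE 0.10, adjusted p = 2.7e-24), and that against naive cells 10.0-fold (adjusted p = 5e-20). With Sal003 the libraries had 87.1, 83.3, 101 and 85.0 CPM, a fall of 2.45-fold (adjusted p = 2.2e-13) that just missed the call. It reached the call without mouse 4 (log2 fold change -1.36) and with upper-quartile scaling of all libraries (-1.33). In the Oli_ISR libraries, at 94.9, 89.4, 95.0 and 91.0 CPM, the fall was 2.36-fold (adjusted p = 3.8e-13). The Oligo libraries, at 48.5, 42.7, 46.9 and 46.2 CPM, fell 4.73-fold (adjusted p = 2.9e-18) and overlapped with the naive libraries, from which they differed by -0.11 on the log2 scale (95% interval -0.27 to 0.05, adjusted p = 0.2). They were also 2.01-fold below the Oli_ISR libraries (adjusted p = 8.4e-11).

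Ptgs2, which encodes COX-2, was low in both naive (4.00, 2.84, 2.68 and 3.08 CPM) and IL-4/IL-13 libraries (2.34, 1.87, 2.26 and 2.79 CPM), and these overlapped. Its fold change between them, -0.46 on the log2 scale (SE 0.19), had an adjusted p of 0.04, which became 0.051 with the replicate block, 0.052 with DESeq2, 0.25 without mouse 1 and 0.12 without mouse 2. With tunicamycin it reached 46.1, 60.1, 60.3 and 45.6 CPM. This was a rise of 23.0-fold (log2 fold change 4.52, SE 0.15, adjusted p = 5e-19), and of 16.7-fold over naive cells (adjusted p = 1.8e-18). The Oligo libraries held 5.54, 5.64, 4.71 and 4.85 CPM, all above those of the IL-4/IL-13, naive and Oli_ISR groups. They rose 2.26-fold over IL-4/IL-13 (log2 fold change 1.17, SE 0.18, adjusted p = 2.1e-06) and 2.34-fold over the Oli_ISR libraries (log2 fold change 1.23, 95% interval 0.87 to 1.59, adjusted p = 2.9e-06). With Sal003 (1.97, 2.26, 1.19 and 2.57 CPM) and in the Oli_ISR libraries (2.65, 2.26, 1.92 and 2.05 CPM) the values overlapped with those of the cytokines alone. Their differences were -0.19 (95% interval -0.62 to 0.23, adjusted p = 0.46) and -0.05 (95% interval -0.47 to 0.36, adjusted p = 0.84) on the log2 scale.

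Set side by side per kilobase of exon, the 2 cyclooxygenase transcripts exchanged places under tunicamycin. Ptgs2 made up 4.62% ± 0.93 (SD, n = 4) of their sum in naive cells, 0.80% ± 0.12 with IL-4/IL-13 and 88.8% ± 2.55 with tunicamycin. The share was 1.71% ± 0.59 with Sal003, 7.88% ± 0.90 in the Oligo and 1.79% ± 0.24 in the Oli_ISR libraries. The sum itself was 13.4 CPM per kb ± 1.39 in naive, 56.6 ± 2.05 with IL-4/IL-13, 11.6 ± 1.58 with tunicamycin and 12.9 ± 0.61 in the Oligo libraries, so that with tunicamycin it was below the sum with IL-4/IL-13 although Ptgs2 rose. Sal003 and the Oli_ISR libraries lay between, at 23.3 ± 1.98 and 24.3 ± 0.74 CPM per kb. In exact two-sided permutation tests, 11 of 12 differences in share or sum reached p = 0.0286, which is the lowest value possible with 4 libraries in each group, and 0.0312 when adjusted over all 12. The exception was the share with Sal003 against IL-4/IL-13, which differed by 0.91 percentage points (exact permutation p = 0.0571, adjusted p = 0.0571). These tests did not pair libraries by mouse, and the measure was chosen after the values of both genes had been seen.

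**Figure D3:**
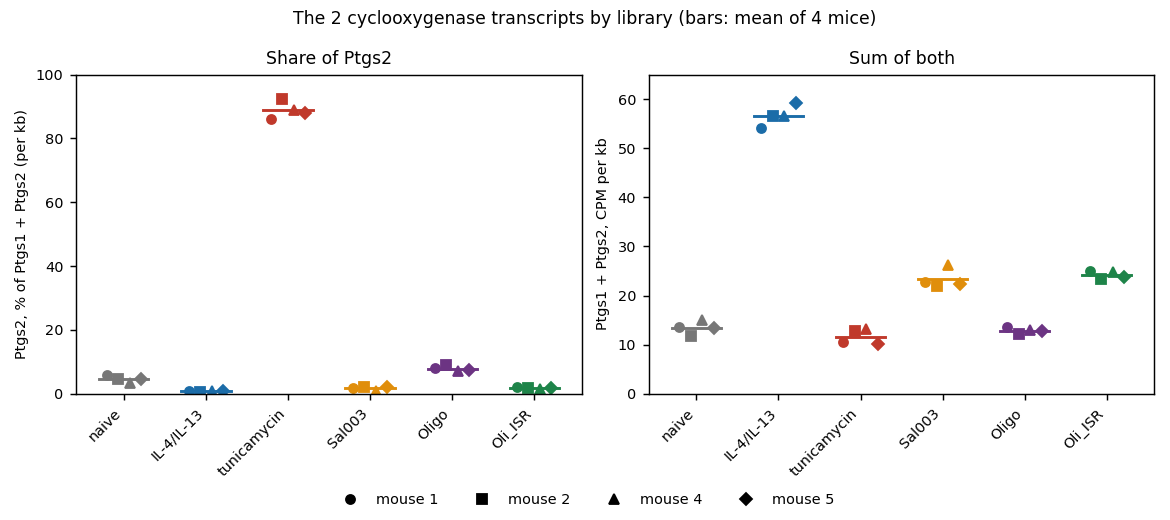
Share of Ptgs2 in the sum of Ptgs1 and Ptgs2 in percent (left) and that sum in CPM per kb (right), for each library by group, with bars at the mean of 4 mice. Only the tunicamycin libraries, at 86.1% to 92.2%, held more Ptgs2 than Ptgs1.

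Tbxas1, the thromboxane synthase, followed Ptgs1. It had 203.5, 210.4, 213 and 195.5 CPM in naive cells and 438, 479, 502 and 481 with IL-4/IL-13, a rise of 2.31-fold (log2 fold change 1.21, SE 0.05, adjusted p = 9.3e-16). The groups did not overlap. Tunicamycin took it to 102, 107, 110 and 103 CPM, 4.51-fold below IL-4/IL-13 (adjusted p = 3.7e-21) and 1.95-fold below naive (adjusted p = 4e-14). The Oligo libraries had 158 to 166 CPM and fell 2.94-fold (adjusted p = 7.1e-18), the Sal003 libraries had 222 to 263 CPM and fell 1.96-fold (adjusted p = 2.1e-13), and the Oli_ISR libraries had 245 to 290 CPM and fell 1.76-fold (adjusted p = 3.8e-12). The Oligo libraries lay 1.67-fold below the Oli_ISR libraries (adjusted p = 6.3e-11), without overlap. Over the 24 libraries, which come from 4 mice and fall into the 6 groups, the log2 CPM of Tbxas1 and Ptgs1 correlated at r = 0.93, those of Ptgs2 and Ptgs1 at -0.94.

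Markers of platelets and megakaryocytes, cells that also express Ptgs1 and Tbxas1, had a summed level of 21.9 to 39.1 CPM in naive, 12.6 to 14.4 with IL-4/IL-13, 49.1 to 60.2 with tunicamycin and 8.44 to 16.0 in the other inhibitor libraries. Most of this sum was Pf4, at 11.7 CPM ± 0.45 (SD, n = 4) with IL-4/IL-13 and 52.6 ± 5.89 with tunicamycin. Ppbp also had the higher mean with tunicamycin, at 0.69 ± 0.36 CPM with IL-4/IL-13 and 1.49 ± 0.15 with tunicamycin. Of the 3 markers detected, only Itga2b had a lower mean with tunicamycin, as both enzymes did. It had 1.06 ± 0.46 CPM with IL-4/IL-13 and 0.56 ± 0.15 with tunicamycin. Gp9 had 3 counts or fewer in every library, and Gp1bb, whose exons lie wholly within those of Septin5 on the same strand, could not be judged. The part of such cells in the levels of Ptgs1 and Tbxas1 was not tested.

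Hpgds, the hematopoietic prostaglandin D synthase, fell with the cytokines and was partly restored in all 4 inhibitor groups. Naive libraries had 272, 207, 246 and 271 CPM, and IL-4/IL-13 libraries 36.2, 34.0, 34.1 and 36.1. The fall was 7.10-fold (log2 fold change -2.83, SE 0.11, adjusted p = 4.8e-17). With tunicamycin it had 118, 113, 113 and 119 CPM (3.29-fold higher than IL-4/IL-13, adjusted p = 2.3e-13), and with Sal003 101, 104, 92.7 and 125 CPM (3.01-fold higher, adjusted p = 7.3e-12). The Oligo libraries rose 2.23-fold (72.7 to 84.1 CPM, adjusted p = 8.7e-10) and the Oli_ISR libraries 2.33-fold (66.5 to 97.1 CPM, adjusted p = 7e-10). In no inhibitor library did it reach the lowest naive value, and all 4 groups stayed below naive cells, by 2.16-fold with tunicamycin (adjusted p = 3.4e-10) to 3.18-fold in the Oligo libraries (adjusted p = 2.7e-13). The Oligo and Oli_ISR libraries overlapped, with a difference of -0.06 on the log2 scale (95% interval -0.27 to 0.15, adjusted p = 0.68).

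Ptges, the inducible synthase that couples mainly to COX-2, was a low gene, with 3.81, 3.70, 3.70 and 3.13 CPM in naive and 2.62, 1.51, 1.21 and 2.31 CPM in IL-4/IL-13 libraries. It fell 1.89-fold (log2 fold change -0.92, SE 0.21, adjusted p = 0.00066). With tunicamycin it had 8.01, 7.85, 8.57 and 8.25 CPM, above all other libraries, and rose 4.30-fold (log2 fold change 2.10, SE 0.20, adjusted p = 7e-10). In the other 3 inhibitor groups the range of 1.47 to 3.35 CPM overlapped with IL-4/IL-13, although the value was higher than with the cytokines alone in 4 of 4 mice in each group. The rise passed in the Oli_ISR libraries (1.56-fold, adjusted p = 0.015, but 0.085 without mouse 2). For Sal003 the adjusted p was 0.08, and 0.049 with the replicate block. For the Oligo libraries it was 0.06, and 0.035 with the replicate block and 0.02 without mouse 4. Fibroblast and stroma markers, of cells that can express Ptgs2 and Ptges, summed to 18.4 to 138.8 CPM in naive, 15.3 to 87.0 in IL-4/IL-13, 3.57 to 24.6 in tunicamycin and 5.6 to 54.9 in the other inhibitor libraries, and all 5 were detected in each group. The part of such cells in the levels of Ptgs2 and Ptges was not tested.

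On the lipoxygenase side, Alox5 fell in steps. Naive libraries had 13.7, 13.9, 12.3 and 11.7 CPM and IL-4/IL-13 libraries 1.89, 2.37, 2.42 and 1.82, a fall of 6.01-fold (log2 fold change -2.59, SE 0.17, adjusted p = 1e-12). It fell further with Sal003, to 0.83, 0.73, 0.79 and 0.31 CPM (3.20-fold, adjusted p = 1.6e-06), and in the Oligo libraries, to 0.47, 0.33, 0.52 and 0.30 CPM (5.21-fold, adjusted p = 8.7e-09). These values rest on 6 to 16 reads per library. In the Oli_ISR libraries (1.08, 0.50, 0.68 and 1.05 CPM) the fall was 2.52-fold (log2 fold change -1.34, SE 0.22, adjusted p = 1.5e-05). The Oligo libraries were lower than the Oli_ISR libraries in 4 of 4 mice and 2.06-fold on average (adjusted p = 0.0056, but 0.074 without mouse 5). Tunicamycin libraries, at 2.16, 2.95, 2.95 and 2.85 CPM, overlapped with IL-4/IL-13, with a log2 fold change of 0.35 (SE 0.19, adjusted p = 0.09).

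Granulocytes are rich in Alox5. The summed level of 8 neutrophil and granulocyte-precursor markers was 40.7 to 76.8 CPM in naive, 24.1 to 44.4 in IL-4/IL-13, 5.09 to 8.49 in Sal003, 2.73 to 4.71 in Oligo, 18.9 to 24.7 in Oli_ISR and 0.10 to 0.29 in tunicamycin libraries, where 7 of the 8 had 3 counts or fewer in every library. The defining marker Ly6g was at 3 counts or fewer in every group. Of 4 eosinophil markers Epx had 3 counts or fewer in every group, and the sum was 21.0 to 26.8 CPM in naive, 10.69 to 14.99 in IL-4/IL-13 and 0.76 to 5.82 in the inhibitor libraries. Most of this sum was the single gene Ccr3, at 22.68 CPM ± 2.59 (SD, n = 4) in naive and 12.35 ± 1.76 with IL-4/IL-13. The granule gene Prg2 had 1.005 ± 0.50 and 0.96 ± 0.14 CPM in these groups. With tunicamycin Alox5 was above the IL-4/IL-13 value in 4 of 4 mice while the neutrophil markers were near 0. In the other 3 inhibitor groups Alox5 and the marker sums were both below IL-4/IL-13, and the part of such cells in the level of Alox5 was not tested. Markers of mast cells and basophils, which also express Hpgds and Ltc4s, summed to 0.96 to 5.52 CPM over all libraries, and Mcpt4, Cma1, Tpsb2 and Fcer1a of the 10 had 3 counts or fewer in every group.

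Alox5ap, the partner of Alox5, was abundant and changed little by comparison. It had 292 to 372 CPM in naive and 233 to 254 in IL-4/IL-13 libraries, a fall of 1.35-fold (adjusted p = 1.4e-06). It fell again in all 4 inhibitor groups, by 1.17-fold with Sal003 (189 to 221 CPM, adjusted p = 0.0047), 1.33-fold in the Oli_ISR libraries (169 to 191 CPM, adjusted p = 5.7e-06), 1.46-fold with tunicamycin (155 to 170 CPM, adjusted p = 2.8e-08) and 1.69-fold in the Oligo libraries (138 to 149 CPM, adjusted p = 1.2e-10). No library of these 4 groups reached the lowest IL-4/IL-13 value.

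Lta4h, the hydrolase that forms leukotriene B4, rose 1.51-fold with IL-4/IL-13, from 58.5 to 63.7 CPM in naive to 89.7 to 92.8 CPM (log2 fold change 0.59, SE 0.06, adjusted p = 2.7e-09). It fell in each inhibitor group against the cytokines alone, by 2.02-fold with tunicamycin (44.2 to 46.2 CPM, adjusted p = 4.5e-14), 1.59-fold in the Oligo libraries (53.7 to 61.1 CPM, adjusted p = 2.5e-10), 1.35-fold in the Oli_ISR libraries (60.9 to 72.7 CPM, adjusted p = 6.9e-07) and 1.18-fold with Sal003 (71.2 to 82.6 CPM, adjusted p = 0.0013). The Oligo libraries differed from naive by -0.07 on the log2 scale (95% interval -0.20 to 0.05, adjusted p = 0.26).

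Ltc4s, the synthase of leukotriene C4, was low, with 4.10, 4.38, 3.54 and 3.33 CPM in naive and 3.01, 2.82, 2.95 and 3.04 CPM in IL-4/IL-13 libraries. The difference did not pass (log2 fold change -0.38, SE 0.18, adjusted p = 0.068), but did with the replicate block (adjusted p = 0.037). With tunicamycin it had 0.62, 0.19, 0.74 and 0.76 CPM, from 12, 4, 13 and 15 reads, and fell 5.15-fold (log2 fold change -2.36, SE 0.23, adjusted p = 1.2e-09). The Oligo libraries had 1.499 to 2.46 CPM, all below IL-4/IL-13, and fell 1.52-fold (adjusted p = 0.0066). The Oli_ISR libraries (2.65 to 3.63 CPM) and the Sal003 libraries (2.42 to 3.17 CPM) overlapped with IL-4/IL-13, with log2 fold changes of 0.13 (95% interval -0.24 to 0.49) and -0.03 (95% interval -0.40 to 0.35).

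Alox15 was near the limit of detection in all 24 libraries. In mice 1, 2, 4 and 5 it had 5, 3, 2 and 4 reads in naive, 7, 8, 8 and 7 in IL-4/IL-13 and 2, 4, 5 and 2 in tunicamycin libraries. With Sal003 it had 0, 1, 0 and 0 reads, in the Oligo libraries 0, 3, 1 and 2, and in the Oli_ISR libraries 1, 1, 1 and 0. These 3 groups were at or under the floor of 3 counts in every library. Over the summed reads and library sizes, the ratio of IL-4/IL-13 to naive was 2.25 (30 against 14 reads, exact 95% interval 1.16 to 4.59), and no cytokine library overlapped with a naive one. The ratio to IL-4/IL-13 was 0.41 with tunicamycin (95% interval 0.20 to 0.81), 0.18 in the Oligo libraries (0.061 to 0.44), 0.091 in the Oli_ISR libraries (0.018 to 0.29) and 0.033 with Sal003 (0.00081 to 0.20). These intervals cover counting error only. Each of these 5 differences in CPM had p = 0.0286 in an exact permutation test, and 0.0343 after adjustment over 6 comparisons. The test did not pair libraries by mouse, and 0.0286 is the smallest value it allows with 4 libraries in each group. The Oligo and Oli_ISR libraries, with 6 and 3 reads in all, did not pass (ratio 1.97, 95% interval 0.42 to 12.2, exact permutation p = 0.514). In an edgeR fit of all genes without the filter, the adjusted p was 0.085 for IL-4/IL-13 against naive and 0.06 for tunicamycin, and 1.2e-05, 0.00088 and 9.1e-05 for Sal003, Oligo and Oli_ISR against IL-4/IL-13.

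The genes whose log2 CPM was most like that of each enzyme over the 24 libraries were searched among 10590 genes with a mean of at least 50 counts. They were Olfm1 (r = 0.995) and Mras (0.990) for Tbxas1, Inf2 (0.990) and Irf5 (0.988) for Ptgs1, Ust (0.988) and Ets2 (0.986) for Ptgs2, and S100a10 (0.977) and St3gal4 (0.975) for Lta4h. For Alox5 they were Arap3 (0.976) and Igfbp4 (0.975), for Alox5ap Actb (0.975) and Il10ra (0.972), for Hpgds Chd3 (0.961) and Adap1 (0.959), for Ltc4s Cmklr1 (0.951) and Sord (0.948), and for Ptges Anxa9 (0.940) and Capza2 (0.917). The 24 points share 4 mice and 6 conditions, so that these values describe likeness of pattern only.

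Of 54 other genes that release arachidonic acid, make further eicosanoids, bind them or remove them, 35 were tested. With IL-4/IL-13, 14 rose and 11 fell, where 60.5% of all genes passed in either direction, and 6 and 7 reached the call, against 5.39% and 6.08% of all genes. With tunicamycin against IL-4/IL-13, 13 rose and 18 fell (76.3% of all genes passed), and 4 and 10 reached the call (8.56% and 14.0% of all genes). Sal003 gave 10 rises and 12 falls (50.6% of all genes passed), the Oligo libraries 13 and 17 (66.2%), and the Oli_ISR libraries 11 and 12 (54.3%). The median size of the log2 fold change over these genes was 0.66 with IL-4/IL-13 and 0.88 with tunicamycin, where all genes tested had 0.34 and 0.58.

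Among the 8 tested genes for release of arachidonic acid, Daglb, a diacylglycerol lipase that forms 2-arachidonoylglycerol, took the same course as Ptgs1. It rose 4.30-fold with IL-4/IL-13, from 185 ± 15.1 to 793 ± 35.4 CPM (SD, n = 4, adjusted p = 2.7e-17), and fell 24.8-fold with tunicamycin, to 32.0 ± 3.27 CPM (adjusted p = 1.8e-23). Part of its exons, 16.1%, overlaps Rac1 on the other strand. Pla2g4a, the cytosolic phospholipase that frees arachidonic acid, rose 3.20-fold with tunicamycin (35.5 ± 1.56 to 113.5 ± 9.04 CPM, adjusted p = 2.6e-18), whereas the lysosomal phospholipase Pla2g15 fell 2.86-fold (adjusted p = 4.7e-16). Among 9 tested synthases, Ptges2, another prostaglandin E synthase, rose 2.79-fold (adjusted p = 3.6e-14) and Prxl2b, a prostaglandin F synthase that overlaps Mmel1 on the other strand over 28.2% of its exons, fell 5.17-fold (adjusted p = 1.4e-13) with IL-4/IL-13, and Mgst3, a microsomal glutathione transferase, fell 5.32-fold with tunicamycin (adjusted p = 5.7e-16).

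The receptors showed the widest range. Ptger3, which encodes the prostaglandin E2 receptor EP3, had 0.42 to 0.55 CPM with IL-4/IL-13, from 8 to 10 reads, and 91.1 to 96.7 CPM with tunicamycin. The fitted rise was 190.5-fold (log2 fold change 7.57, adjusted p = 6e-25), and its size is uncertain because the IL-4/IL-13 libraries held so few reads. The Oligo libraries, at 8.04 to 10.2 CPM, lay between. Fpr2, the receptor that binds lipoxin A4, had 13.3 to 17.6 CPM in naive, 0.06 to 0.58 with IL-4/IL-13 and 41.1 to 63.6 with tunicamycin. The IL-4/IL-13 values rest on 1 to 11 reads per library, 26 in all, with the lowest library under the floor of 3 counts. The fitted log2 fold changes, which such low counts leave uncertain, were -5.36 for IL-4/IL-13 against naive (adjusted p = 5.1e-15) and 7.13 for tunicamycin against IL-4/IL-13 (adjusted p = 6.4e-19). Intervals derived from the test statistic can be too narrow for so few reads and are not given for them. In every other group both receptors lay below their tunicamycin range. Fpr2 shares 7.01% of its exon length with its neighbour Fpr3 on the same strand. Ltb4r1, the high-affinity receptor of leukotriene B4, went the other way. It rose 16.8-fold with IL-4/IL-13 (0.53 ± 0.09 to 9.06 ± 1.22 CPM, adjusted p = 3.4e-13) and fell 34.5-fold with tunicamycin (adjusted p = 1.2e-14), to 2 to 8 reads per library. Ptgir, the prostacyclin receptor, rose 8.92-fold with IL-4/IL-13, from 10.1 to 16.0 CPM in naive to 107 to 121 CPM (adjusted p = 8.3e-17).

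Among 9 tested genes of transport and breakdown, Hpgd, the dehydrogenase that inactivates prostaglandins, fell with the cytokines and further with each inhibitor by value. It had 203 ± 11.0 CPM in naive, 21.4 ± 1.49 with IL-4/IL-13, 8.65 ± 0.80 with Sal003, 4.83 ± 0.66 in Oli_ISR, 3.50 ± 0.45 in Oligo and 1.87 ± 0.47 with tunicamycin. The falls were 9.49-fold for IL-4/IL-13 (adjusted p = 4.3e-21) and 11.4-fold for tunicamycin against IL-4/IL-13 (adjusted p = 5.5e-19). Cyp4f18, which inactivates leukotriene B4 by hydroxylation and overlaps Zfp961 on the other strand over 17.6% of its exons, fell 21.3-fold with tunicamycin (54.1 ± 4.30 to 2.51 ± 0.46 CPM, adjusted p = 7.1e-20). Ggt5, which cleaves leukotriene C4, fell 3.38-fold with IL-4/IL-13 (4.30 ± 1.01 to 1.26 ± 0.18 CPM, adjusted p = 1.8e-05).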

How the data were processed

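Single-end mRNA reads of 24 macrophage libraries were trimmed by the authors with cutadapt 1.8, aligned with STAR 2.7 to GRCm39 and counted per gene with HTSeq 0.9.1; the strand setting is not given in the sources used here. The values used are the deposited raw counts, not normalized. Totals that name no gene (12.74% to 15.231% of reads) were left out. The deposited RSEM 1.2.31 TPM table was not used, because its header has more names than its rows have cells. Groups came from the sample labels. The enzymes, gene lists and tests were chosen with earlier results of these data known.

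Counts were tested with edgeR 4.0.16 in R 4.3.3 (TMM, filterByExpr, quasi-likelihood, 1 model over 24 libraries, Benjamini-Hochberg), and called at an adjusted p-value under 0.05 and 2.5-fold. CPM values are counts divided by the TMM-scaled library size, and likeness used log2 CPM with a prior count of 2. The script was tested on simulated data. The named genes were all 10 enzymes, the 2 genes most like each, and, per pathway group, up to 3 called genes with at least 50 counts on average and the largest change in IL-4/IL-13 against naive and in tunicamycin against IL-4/IL-13. Replicates are separate mice. Same-numbered libraries are from 1 animal and deviated together (median correlation 0.236, 56 of 60 pairs above 0.1, against -0.0543 for different mice). Libraries of 1 group differed by more than counting noise (chi-square per gene 2.19 to 36.6). Alternatives were DESeq2 1.42.0, upper-quartile scaling, other filters and folds, only the groups compared, the replicate block, another prior count and leaving out each mouse. Positions are GRCm39, and 56323 of 56884 identifiers were in the annotation.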

Additional observations from a re-analysis of the deposited data

Results flagged for a closer look

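In 4 of 60 sets of 4 libraries (10 enzymes in 6 groups), 1 library stood apart from the other 3 by Dixon's ratio, where chance gives about 3. Alox5 in tunicamycin was lowest in mouse 1 (2.16 CPM, others 2.85 to 2.95). Ptges in naive cells was lowest in mouse 5 (3.13 CPM, others 3.70 to 3.81). For Alox15 the values rest on single reads: in Sal003 mouse 2 had 0.056 CPM, from 1 read, and the others 0, and in the Oli_ISR libraries mouse 5 had 0 CPM and the others 0.054 to 0.057.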

How the results depend on the processing

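Of 880 fold changes recomputed for the 9 enzymes in 10 comparisons, 843 kept their direction and their side of the adjusted p-value of 0.05, 20 lost it, 13 gained it and 4 reversed. The reversals were small values without mouse 5 or, for Hpgds, mouse 2 or 5. With each mouse left out in turn, the log2 fold change ranged from -0.075 to 0.056 for Ltc4s with Sal003 against IL-4/IL-13, from -0.16 to 0.073 for Ptgs2 in Oli_ISR against IL-4/IL-13, and from -0.16 to 0.018 (0.0061 without mouse 5) for Hpgds between Oligo and Oli_ISR. Counts of called enzymes moved most with the fold threshold. With no minimum fold they were 8 for IL-4/IL-13 against naive, 6, 8 and 7 for Sal003, Oligo and Oli_ISR against IL-4/IL-13, 7 for Oligo against Oli_ISR, and 9, 8, 6 and 7 for tunicamycin, Sal003, Oligo and Oli_ISR against naive. Of all 13679 genes, in the same order, 8279, then 6917, 9051 and 7428, then 5634, and then 10617, 8554, 9714 and 8726 passed. At 2-fold the called enzymes were 5 (Oligo), 3 (Oli_ISR), 3 (Oligo against Oli_ISR) and 2 (Sal003 against naive). With at least 10 counts in every library, which leaves out low enzymes such as Alox5, they were 1 for Sal003 and 0 for Oli_ISR against IL-4/IL-13, and 2, 0, 1 and 1 against naive. DESeq2 and the fit without a filter, which tested Alox15 as well, gave 2 for Oli_ISR against IL-4/IL-13 and 2 for Sal003 against naive. With the replicate block the Oli_ISR count was 0 instead of 1, and no other count of called enzymes changed by over 1.5 times. By the adjusted p-value alone the block changed the calls given beside Ltc4s, Ptgs2 and Ptges in the report and made Ptges pass against naive for Sal003 (adjusted p = 0.03) and Oligo (0.024), and it changed no other call. Leaving out each mouse gave 0 to 1 for Oli_ISR and 2 to 3 for Sal003 against IL-4/IL-13, and the main count for the other 8 comparisons. Over all genes, calls with at least 10 counts in every library, where fewer genes were tested (11017), fell from 1569 to 812 for IL-4/IL-13 against naive, to 1738 from 3088 for tunicamycin, 473 from 1055 for Sal003, 911 from 1744 for Oligo and 489 from 1089 for Oli_ISR against IL-4/IL-13, and to 115 from 358 between Oligo and Oli_ISR. Against naive they were 1734, 608, 1008 and 657 in place of 3087, 1464, 1987 and 1498. At 2-fold they were 680 between Oligo and Oli_ISR and 2227, 3007 and 2290 for Sal003, Oligo and Oli_ISR against naive. For Oligo and Oli_ISR against IL-4/IL-13 they stayed within 1.5 times of 1744 and 1089. Depth limits Alox15, Ltc4s under tunicamycin and Alox5 under Sal003 and oligomycin.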
